A study of Mus musculus with 24 samples.

Results

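The comparison described here is that of Nrf2-knockout mice with wild-type mice after spaceflight in bone marrow. Its members are 12 of the 24 libraries of the series, 6 from flown Nrf2-KO mice (FL-KO) and 6 from flown wild-type mice (FL-WT), and 12373 of 54752 genes, which are all those with a TPM (length-corrected transcript abundance, scaled to the same total in every library) above 1 in at least 1 of the 24 libraries. All mice were males on a C57BL/6 background. The flown mice were 8 weeks old when they were taken to the launch site, stayed in space for 31 days and were sampled 2 days after landing. Both flight groups therefore shared the launch, the stay, the landing and the days after it, and differed by genotype. The ground groups of the same genotypes (GC-KO and GC-WT, 6 mice each) were housed to copy the flight and are used only to set the flight difference beside the difference without flight. Each library came from the cryopreserved marrow cells of 1 mouse, so every value is a mixture of erythroid, myeloid and lymphoid cells, and fewer cells of a type and less RNA per cell cannot be told apart. The knockout affects all cells of the animal.

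Nrf2 is a transcription factor of the Cap'n'collar family. The ubiquitin ligase adaptor Keap1 keeps it low in unstressed cells, and oxidants or electrophiles that modify Keap1 allow Nrf2 to accumulate, pair with a small Maf protein and bind antioxidant response elements. Its best known targets make glutathione and NADPH, reduce peroxiredoxins and break down heme, and it is also known for restraining inflammatory gene expression in macrophages and for effects on blood stem cells.

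Nfe2l2, the gene of Nrf2 (ENSMUSG00000015839.6, GRCm38 chromosome 2, 75675513 to 75704641), checked the labels. Its TPM was 11.4 at the lowest, 19.2 at the median and 27.3 at the highest in the FL-WT mice, and 2.22, 3.10 and 4.31 in the FL-KO mice. The groups did not overlap, and the means differed 6.06-fold (log2 fold change -2.23 ± 0.17 SE, adjusted p = 1.43e-09 in limma). TPM are per gene, so the part of the gene that was deleted was not separated from the part still transcribed. Of the 141 other genes tested within 20 Mb of Nfe2l2, 7 were downregulated, and their median log2 fold change was -0.23, which is 0.02 above that of all genes.

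Most genes had lower values in FL-KO than in FL-WT mice. In limma on log2(TPM + 1), with a minimum 2-fold difference and a p below 0.1 after Benjamini-Hochberg adjustment, 1034 genes were downregulated and 12 were upregulated in FL-KO vs. FL-WT (the differentially expressed genes, DEGs). These are 8.36% and 0.097% of the 12373 tested genes. The log2 fold change was below 0 for 9782 genes (79.1%), and its median over all genes was -0.25. Each gene or list is therefore also given relative to this median shift, as its log2 fold change minus -0.25. Of the 1034 downregulated genes, 994 had all 6 FL-KO mice below all 6 FL-WT mice, and 494 were at least 1 log2 unit below the median shift. Over all tested genes, all FL-KO mice were below all FL-WT mice for 20.6% and above them for 0.307%. Among downregulated genes whose mean reached 5 TPM in 1 group, the ratio of the group means (FL-WT over FL-KO) had a median of 2.94 and started at 1.86. On the 2 sides of the fold change threshold lay the membrane pore gene Mpeg1, from 51.8 to 25.6 TPM at the medians and counted, and the actin regulator Cyfip1, from 6.88 to 3.10 TPM and not counted.

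**Figure D1:**
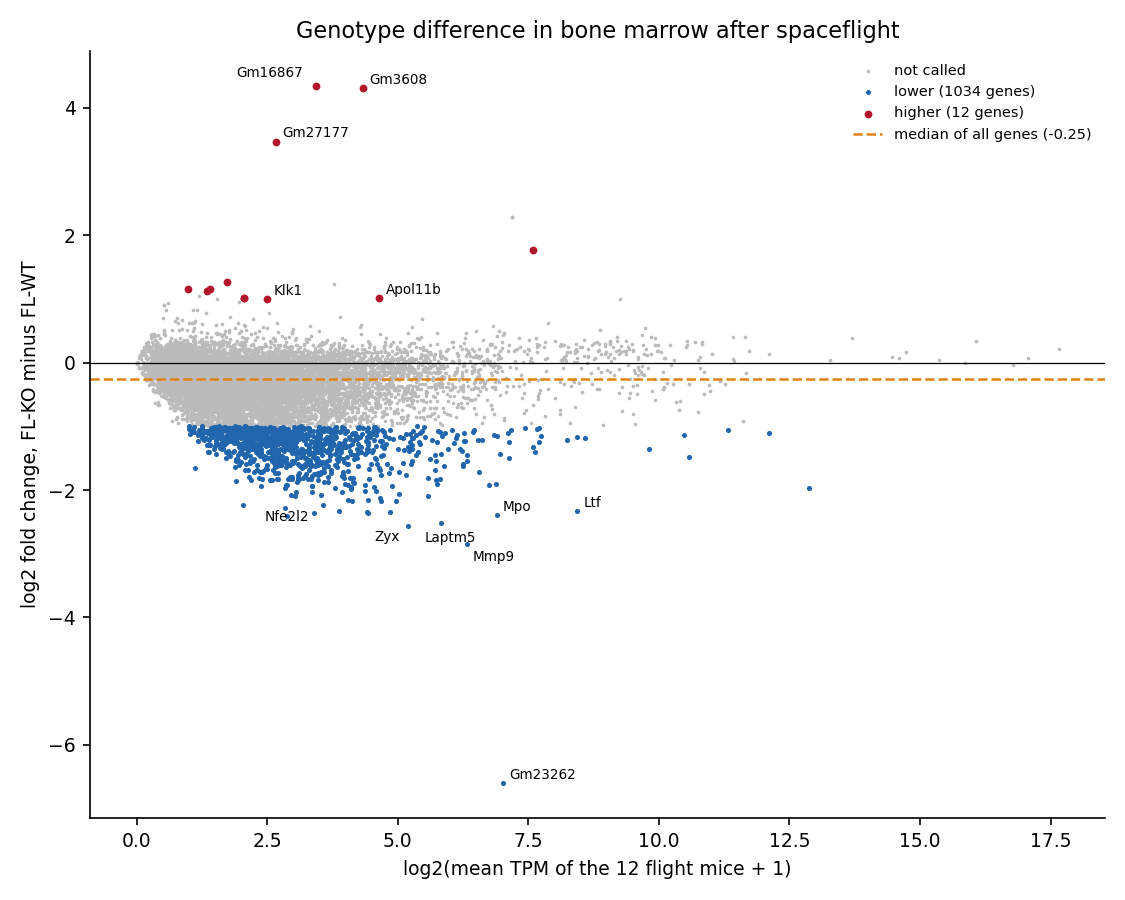
Log2 fold change of FL-KO minus FL-WT on log2(TPM + 1) (vertical axis) against the log2 of the mean TPM of the 12 flight mice plus 1 (horizontal axis) for the 12373 tested genes. Blue points are the 1034 downregulated genes, red points the 12 upregulated genes, and the dashed line is the median of all genes at -0.25. Most points lie below 0, and Gm3608, Gm16867 and Gm27177 stand above all others.

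The scale of TPM bears on the counts, because a TPM is a share of its library. In FL-KO mice the median log2(TPM + 1) of the tested genes was 1.61 to 1.99 per mouse and in FL-WT mice 1.82 to 2.62 (difference of means -0.42, p = 0.013 by an exact two-sided permutation test, adjusted over 8 tests 0.0952). The 5 small structural RNAs Rn7s1, Rn7s2, Rn7sk, Rpph1 and Rmrp held 40.1% to 59.6% of TPM in FL-WT and 46.1% to 59.3% in FL-KO mice (p = 0.364, exact permutation test). The 100 most abundant genes held 79.6% to 88.5% in FL-WT and 85.9% to 89.3% in FL-KO mice (p = 0.0455, exact permutation test, adjusted 0.0952). With these 5 RNAs left out of the total, the 100 most abundant genes held 65.2% to 72.3% in FL-WT and 73.2% to 76.1% in FL-KO mice, without overlap (p = 0.00216, exact permutation test, the smallest that 6 mice against 6 allow, adjusted over 6 tests 0.00648). When the libraries were scaled by the median of ratios, the median log2 fold change was 0.044, 381 genes were downregulated and 27 were upregulated (3.08% and 0.218% of the tested genes). All 381 were among the 1034. Centring each library on its median gave 283 lower and 42 higher genes, so that the share of lower genes among the DEGs was 87.1% in place of 98.9%. No gene named below as downregulated had a log2 fold change above 0 under any scaling. Genes that did not pass the test and lay near 0 on the TPM scale were above 0 with median-of-ratios scaling in many cases, and are given relative to the median shift for that reason.

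The difference also followed the base composition of the transcripts. In 5 bins of equal size, from the lowest to the highest transcript GC content, the median log2 fold change was -0.03, -0.16, -0.27, -0.40 and -0.59, and 0.283%, 1.42%, 4.24%, 12.6% and 23.3% of genes were downregulated. The same bins had medians of -0.03 to -0.44 in GC-KO vs. GC-WT. The median GC content was 55.9% in the downregulated genes and 49.9% in all tested genes. When the trends with GC content and length were removed from each library, 188 genes were downregulated (1.52% of the genes tested so), of which 185 were among the 1034. The bins of transcript length had medians between -0.12 and -0.31. Among the autosomes and the X chromosome, the downregulated share ran from 3.64% on chromosome 13, with a median GC content of 47.6%, to 14.3% on chromosome 19, with 51.5%. None of the 15 mitochondrial and 6 Y-chromosome genes tested was downregulated in limma. What moves with GC content in these libraries was not tested.

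**Figure D2:**
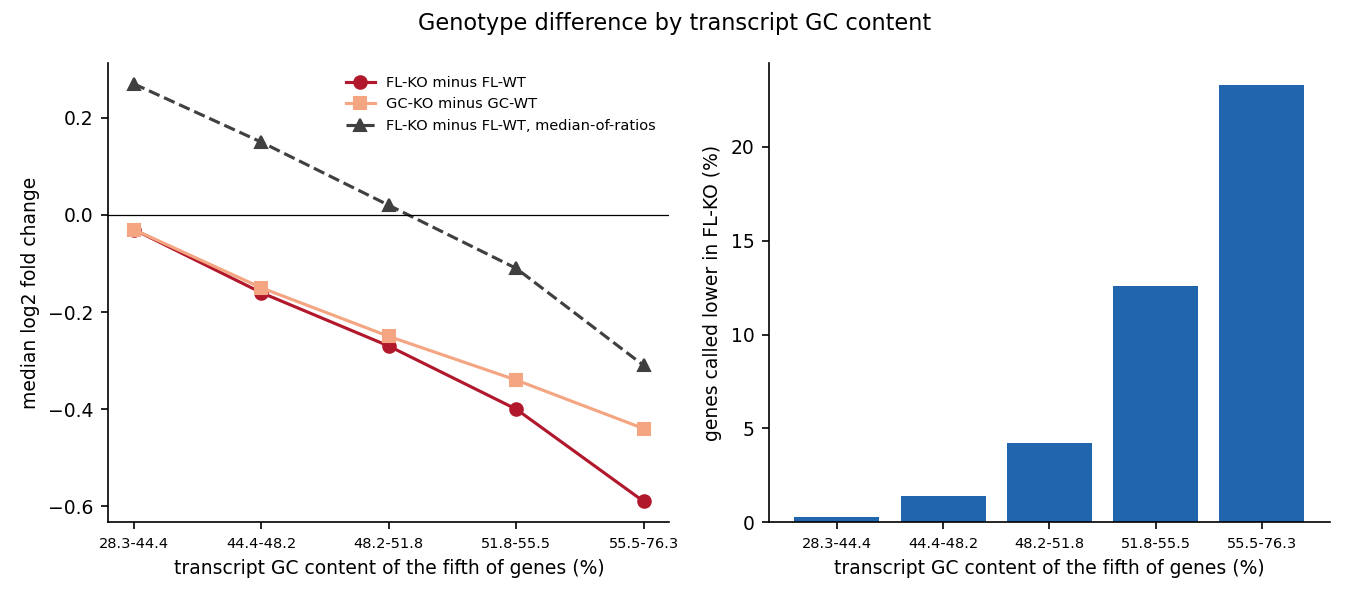
Left, median log2 fold change in 5 bins of genes ordered by transcript GC content, for FL-KO minus FL-WT on TPM, GC-KO minus GC-WT on TPM, and FL-KO minus FL-WT after median-of-ratios scaling. Right, percent of genes in each bin that were downregulated in FL-KO mice. The medians fall from -0.03 to -0.59 in the flight mice, and the downregulated share rises from 0.283% to 23.3%.

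The largest decreases included genes of neutrophil granules. Mmp9, the gelatinase of neutrophil tertiary granules, was at 72.7 TPM at the lowest, 114 at the median and 269 at the highest in FL-WT mice and at 11.2, 16.2 and 24.5 TPM in FL-KO mice. The means differed 8.36-fold (log2 fold change -2.85 ± 0.33 SE, adjusted p = 8.54e-07 in limma). Zyx, which encodes the focal adhesion protein zyxin, was at 36.7, 60.0 and 100 TPM in FL-WT and 6.58, 8.75 and 12.5 TPM in FL-KO mice. Laptm5, a lysosomal membrane protein of blood cells, was at 57.7, 84.3 and 168 TPM in FL-WT and 12.3, 14.2 and 20.4 TPM in FL-KO mice. For each of them the highest FL-KO mouse was below the lowest FL-WT mouse. Mpo, the myeloperoxidase of primary granules, was at 130, 157 and 360 TPM in FL-WT and 25.4, 32.5 and 46.5 TPM in FL-KO mice. Ltf, which encodes the iron-binding lactoferrin of secondary granules, was at 340, 503 and 995 TPM in FL-WT and 78.5, 107 and 131 TPM in FL-KO mice. The 10 largest decreases also included Fmnl1, a formin of blood cells, Anxa11, an annexin, Lrg1, a secreted glycoprotein made by neutrophils, and Fn1, fibronectin. Their log2 fold changes were -2.36, -2.35, -2.34 and -2.33. The 9 genes named here also passed the thresholds in GC-KO vs. GC-WT mice, with log2 fold changes of -1.26 for Lrg1 to -2.14 for Fn1, and with median-of-ratios scaling. Outside this group, and picked after its values were seen, the small nucleolar RNA gene Gm23262 had the lowest fitted log2 fold change of all genes (-6.60 ± 1.60 SE). It was listed at 0 in 5 of 6 FL-KO mice and at 156 TPM in the remaining one, which overlaps the lowest FL-WT mouse, and 4 of the 12 ground libraries were also listed at 0.

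**Figure D3:**
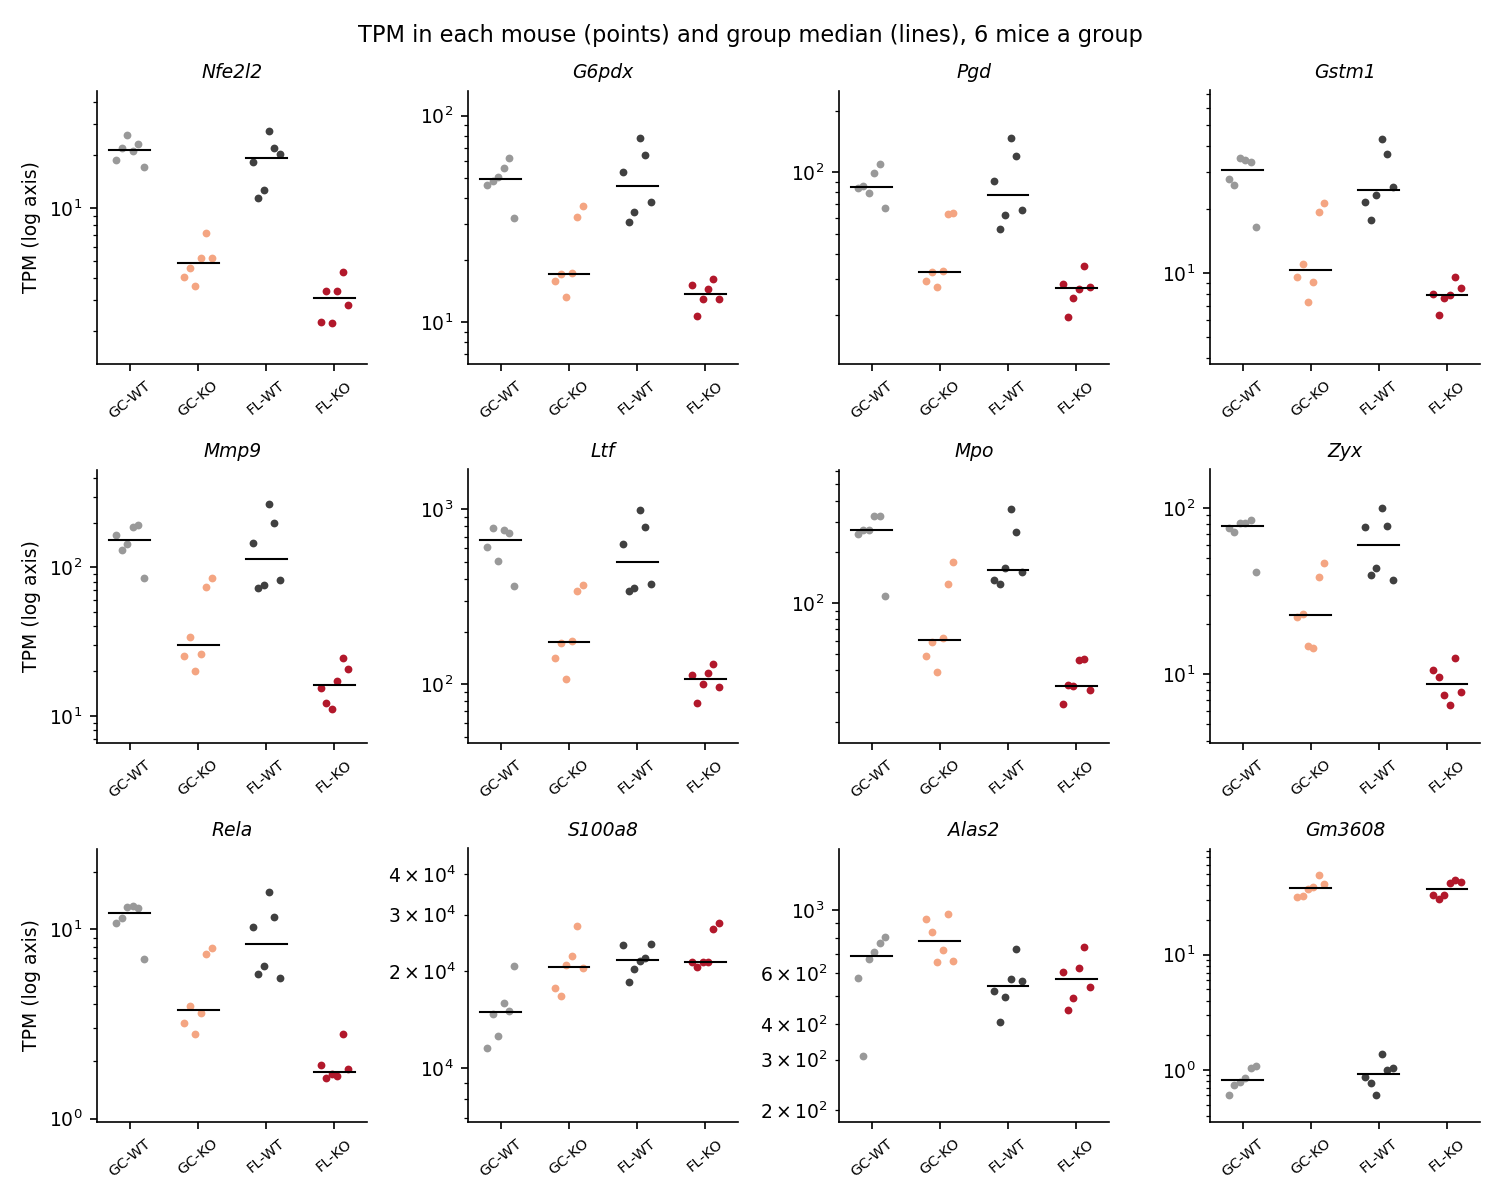
TPM of 12 genes in each of the 24 mice on log axes, with the group median as a line. The FL-KO points of Nfe2l2, G6pdx, Pgd, Gstm1, Mmp9, Ltf, Mpo, Zyx and Rela lie below all FL-WT points, those of S100a8 and Alas2 overlap them, and those of Gm3608 lie above them.

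Of the redox genes for which Nrf2 is best known few passed the thresholds. Many had lower values, as did 79.1% of all tested genes. Of these redox genes, 3 enzymes of the pentose phosphate pathway fell. G6pdx, the glucose-6-phosphate dehydrogenase that starts the pathway and makes NADPH, was at 30.5, 45.6 and 77.8 TPM in FL-WT and 10.7, 13.7 and 16.3 TPM in FL-KO mice (lowest, median and highest). Pgd, the next dehydrogenase, was at 53, 77.5 and 148 TPM in FL-WT and 19.6, 27.2 and 34.6 TPM in FL-KO mice. Tkt, the transketolase, was at 74.7, 102 and 170 TPM in FL-WT and 28.1, 37.6 and 42.9 TPM in FL-KO mice. None of these genes overlapped between the groups, and their log2 fold changes of -1.71 ± 0.23 (SE), -1.62 ± 0.23 and -1.59 ± 0.20 passed the test with TPM and with median-of-ratios scaling. They were the 3 downregulated genes of 10 tested for NADPH production (median 0.51 below the median shift). Idh1, the NADP-dependent isocitrate dehydrogenase, was at -0.95 and did not reach the fold change threshold.

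Of 18 glutathione genes, 1 was downregulated and 8 were lower and 0 higher at an unadjusted p under 0.05 in limma. Over all 12373 tested genes, 8.36% were downregulated, and 5857 were lower and 236 higher at that level. The median log2 fold change of the list was -0.21, near the median shift of all genes. That gene was Gstm1, a glutathione transferase, at 17.7, 24.6 and 42.8 TPM in FL-WT and 6.34, 7.90 and 9.64 TPM in FL-KO mice (log2 fold change -1.63 ± 0.22 SE, adjusted p = 3.08e-06 in limma). Gclc and Gclm, the catalytic and modifier subunits of the enzyme that limits glutathione synthesis, were at -0.45 and -0.43, and glutathione reductase (Gsr) at -0.63. Gpx1, the most abundant glutathione peroxidase of the list, was at a median of 1280 TPM in FL-WT and 1310 TPM in FL-KO mice. Of 17 thioredoxin and antioxidant enzymes, 0 passed the thresholds in limma (median log2 fold change -0.31), 10 were lower and 1 higher at an unadjusted p under 0.05, and thioredoxin reductase Txnrd1 came nearest with -0.97. Nqo1, the quinone reductase often used to read Nrf2 activity, was low in both groups, with medians of 1.73 TPM in FL-WT and 1.04 TPM in FL-KO mice. Prdx2, a peroxiredoxin of red cells, was at 89.0, 151 and 159 TPM in FL-WT and 129, 173 and 230 TPM in FL-KO mice, with overlap. Of 7 genes of heme breakdown and iron storage, 0 passed in limma, and 4 were lower at an unadjusted p under 0.05. Heme oxygenase Hmox1 was at a median of 36.8 TPM in FL-WT and 20.9 TPM in FL-KO mice (log2 fold change -0.79). Among the regulators, Mafg, a small Maf partner of Nrf2, fell from a median of 17.2 to 7.90 TPM, Keap1 was at 5.02 and 2.58 TPM and the repressor Bach1 at 8.08 and 4.75 TPM. Mafg was the 1 of 6 tested regulators that passed, with a log2 fold change of -1.01, and all 6 were lower at an unadjusted p under 0.05. It did not pass with median-of-ratios scaling, and leaving out 1 library ended its call for 6 of the 12 libraries.

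The antioxidant response element was searched as TGACNNNGC on both strands, so also as GCNNNGTCA, in the 250 bases before each transcription start of the RefSeq promoter table (GRCm38.p6). This pattern can overlap the AP-1 heptamer TGACTCA. Of 32851 promoters, 10.2% held it, as did 14.1% of the 8612 promoters of tested genes and 13.8% of the 806 promoters of downregulated genes. The downregulated genes therefore held it about as often as the tested genes. In the redox lists 10 of 51 genes with a promoter held it (19.6%), and their log2 fold changes ran from -1.71 in G6pdx to 0.02 in Gstm5. The last 150 bases before the start are shown for G6pdx (chrX:74428881-74429030, minus strand), which fell, for Txnrd1 (chr10:82859056-82859205, plus strand) and Gclm (chr3:122245407-122245556, plus strand), which had lower values and did not pass, and for Prdx1 (chr4:116685449-116685598, plus strand), at a log2 fold change of -0.21. They let a reader compare the element in genes that differed and in genes that did not. Capitals mark the match, which starts 57, 92, 134 and 133 bases before the transcription start.
G6pdx: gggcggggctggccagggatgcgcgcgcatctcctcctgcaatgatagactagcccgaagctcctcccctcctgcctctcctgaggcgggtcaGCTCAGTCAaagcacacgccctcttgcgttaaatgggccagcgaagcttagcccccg
Txnrd1: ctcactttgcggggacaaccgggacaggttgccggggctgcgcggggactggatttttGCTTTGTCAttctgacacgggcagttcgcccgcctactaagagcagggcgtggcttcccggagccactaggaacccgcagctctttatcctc
Gclm: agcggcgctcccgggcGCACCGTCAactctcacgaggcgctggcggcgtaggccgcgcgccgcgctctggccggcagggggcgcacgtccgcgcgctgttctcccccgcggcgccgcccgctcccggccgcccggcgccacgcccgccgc
Prdx1: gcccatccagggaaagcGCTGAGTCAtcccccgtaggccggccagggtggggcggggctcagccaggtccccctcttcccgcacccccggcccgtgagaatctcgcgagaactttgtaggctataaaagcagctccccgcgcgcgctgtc
A match is a description of the letters and not a site shown to be bound.

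Granule genes differed among themselves. Of 11 secondary and tertiary granule genes, 6 were downregulated, and the median of the list was 0.78 below the median shift. Besides Mmp9 and Ltf, Cd177, a surface protein of neutrophils, was at 38.1, 70.6 and 156 TPM in FL-WT and 16.2, 20.7 and 25.1 TPM in FL-KO mice, and Lcn2, the siderophore-binding lipocalin, fell from a median of 1950 to 870 TPM. The antimicrobial peptide gene Camp was at medians of 2870 and 2830 TPM (log2 fold change 0.02). Of 6 primary granule genes, Mpo and neutrophil elastase (Elane, from a median of 254 to 133 TPM, log2 fold change -1.04) were downregulated. The other granule proteases Prtn3 and Ctsg were at -0.37 and -0.31, and the list median was 0.12 below the median shift on TPM and 0.03 above it with median-of-ratios scaling. Elane did not pass with median-of-ratios scaling, nor without FL-WT mouse 7, FL-WT mouse 8 or FL-KO mouse 2.

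In mature neutrophils the surface receptors were lower and the most abundant transcripts were not. Of 14 genes, 4 were downregulated: Itgb2 and Itgam, the chains of the integrin Mac-1, Csf3r, the receptor of granulocyte colony-stimulating factor, and Selplg, the selectin ligand. Itgb2 was at 46.5, 64.9 and 130 TPM in FL-WT and 15.2, 18.5 and 23.8 TPM in FL-KO mice (log2 fold change -1.81 ± 0.24 SE). Csf3r was at 29.4, 41.2 and 71.4 TPM in FL-WT and 9.07, 12.3 and 18.3 TPM in FL-KO mice (-1.66 ± 0.23 SE). S100a8 and S100a9, which encode the calprotectin subunits that fill the neutrophil cytosol, were at medians of 21700 and 25000 TPM in FL-WT and 21400 and 23400 TPM in FL-KO mice, with log2 fold changes of 0.09 and 0.08. The summed TPM of the 14 genes was 39300 to 54600 in FL-WT and 45500 to 62000 in FL-KO mice, which overlap.

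Of 6 subunits of the oxidase that neutrophils use to make superoxide, Rac2, Ncf1 and Cybb were downregulated, and the list median was 0.71 below the median shift. With median-of-ratios scaling Rac2 alone passed. Rac2, the GTPase subunit, was at 72.2, 111 and 185 TPM in FL-WT and 34.2, 39.1 and 52.7 TPM in FL-KO mice. The membrane subunits Cybb and Cyba were at -1.09 and -0.41 on the log2 scale, so that the catalytic chain passed and its partner did not.

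Monocyte genes were led by Fn1 and by Csf1r, the receptor of macrophage colony-stimulating factor. Csf1r was at 7.76, 10.4 and 22.9 TPM in FL-WT and 2.23, 2.65 and 3.82 TPM in FL-KO mice, without overlap. Of 11 genes 3 were downregulated, with the fractalkine receptor Cx3cr1 as the remaining one. Lyz2, the lysozyme of myeloid cells and the most abundant of them, was at medians of 3590 and 2840 TPM (-0.16), and the chemokine receptor Ccr2 was at 46.8 and 37.0 TPM (-0.33). Of 12 tissue macrophage genes 1 was downregulated (8.33%, against 8.36% of all tested genes), and the list median was 0.08 below the median shift. This gene was Cd5l, a secreted scavenger protein, from a median of 6.81 to 2.30 TPM.

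Eosinophil genes were lower in the flown knockouts, and 1 mouse decided most of the calls. Of 14 eosinophil, basophil and mast cell genes, 5 were downregulated, namely the eosinophil ribonuclease genes Ear6, Ear1 and Ear2, the peroxidase gene Epx and the lipoxygenase gene Alox15. The ribonuclease genes are close copies, so the split of reads between them is uncertain. Epx was at 53.6, 70.5 and 79.2 TPM in FL-WT and 13.7, 32.2 and 41.6 TPM in FL-KO mice. FL-KO mouse 9 was at 24 TPM of Ear6, whereas the other FL-KO mice were at 82.4 to 116 TPM. With median-of-ratios scaling 0 of the 14 passed in limma. Without FL-KO mouse 9, on TPM, 1 gene in place of 5 passed, and the list median was 0.21 in place of 0.44 below the median shift. The summed TPM of the list still did not overlap, with 1580 to 2100 in FL-WT and 387 to 1280 in FL-KO mice. In GC-KO vs. GC-WT mice 0 of the 14 passed the same thresholds in limma, and the list median was 0.28 above the median shift there. The interaction of genotype and flight for Ear6 had an unadjusted p of 0.000343 in limma and did not pass the adjusted threshold.

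The transcription factors of myeloid cells were lower as a list. Of 10, 7 were downregulated, and the list median was 0.86 below the median shift. Spi1, which encodes PU.1, was at 33.8, 49.8 and 84.8 TPM in FL-WT and 16.0, 20.5 and 24.4 TPM in FL-KO mice (log2 fold change -1.30 ± 0.19 SE, adjusted p = 8.2e-06 in limma). Rara, a retinoic acid receptor, fell from a median of 10.5 to 2.73 TPM, and Cebpa and Cebpb, which drive granulocyte differentiation, from 10.1 to 4.06 TPM and from 26.1 to 11.4 TPM. The remaining ones were Klf4, Irf8 and Cebpe. With median-of-ratios scaling 1 of 10 passed (Rara) and the list median was 0.77 below that of all genes. With the GC and length trends removed 0 passed in limma and the median was 0.48 below. The median GC content of these 10 genes was 59.1%, above the 49.9% of all tested genes.

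Regulators of the leukocyte cytoskeleton formed the lowest of the 49 lists by its median on TPM. The lists were chosen with earlier results of these data known, so this rank is a description only. With the GC and length trends removed the glycolysis list was lower, at 0.70 against 0.67 below the median of all genes. Of 29 genes, 15 were downregulated, and the median was 0.95 below the median shift. Fmnl1, Myh9 (non-muscle myosin), Itgal (the alpha chain of LFA-1) and Tln1 (talin) led with log2 fold changes of -2.36, -2.10, -1.94 and -1.93. Myh9 was at 45.0, 66.8 and 143 TPM in FL-WT and 11.8, 16.2 and 19.8 TPM in FL-KO mice. The abundant actin binders Cfl1 and Coro1a fell from medians of 266 to 123 TPM and from 395 to 186 TPM. Cdc42, the GTPase, was at 142 and 120 TPM and Gmfg, which debranches actin, at 159 and 152 TPM, so the list was not lower throughout. With median-of-ratios scaling 9 of 29 passed, with the GC and length trends removed 9 passed, and in GC-KO vs. GC-WT mice 11 passed.

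The glycolytic enzymes were lower in most members. Of 17, 8 were downregulated, 13 had all FL-KO mice below all FL-WT mice, and the median was 0.73 below the median shift. Over all tested genes 8.36% were downregulated, and 20.6% had all FL-KO mice below all FL-WT mice. Pkm, the pyruvate kinase, was at 121, 163 and 287 TPM in FL-WT and 37.0, 44.3 and 58.5 TPM in FL-KO mice (log2 fold change -1.90 ± 0.22 SE). Hk3, the hexokinase of myeloid cells, Aldoa, an aldolase, and Eno1, an enolase, were at -2.01, -1.71 and -1.54. Ldha, which makes lactate, and Pgk1 were at -0.57 and -0.39 and did not pass. Pkm, Hk3, Aldoa and Eno1 passed also with median-of-ratios scaling and on the ground. The summed TPM of the 17 enzymes was 951 to 2150 in FL-WT and 472 to 676 in FL-KO mice, without overlap. Of 14 genes of fatty acid oxidation and thioesterases, 1 was downregulated (7.14%, against 8.36% of all tested genes). It was Cpt1a, the carnitine transferase that admits fatty acids to mitochondria, with a log2 fold change of -1.32.

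**Figure D4:**
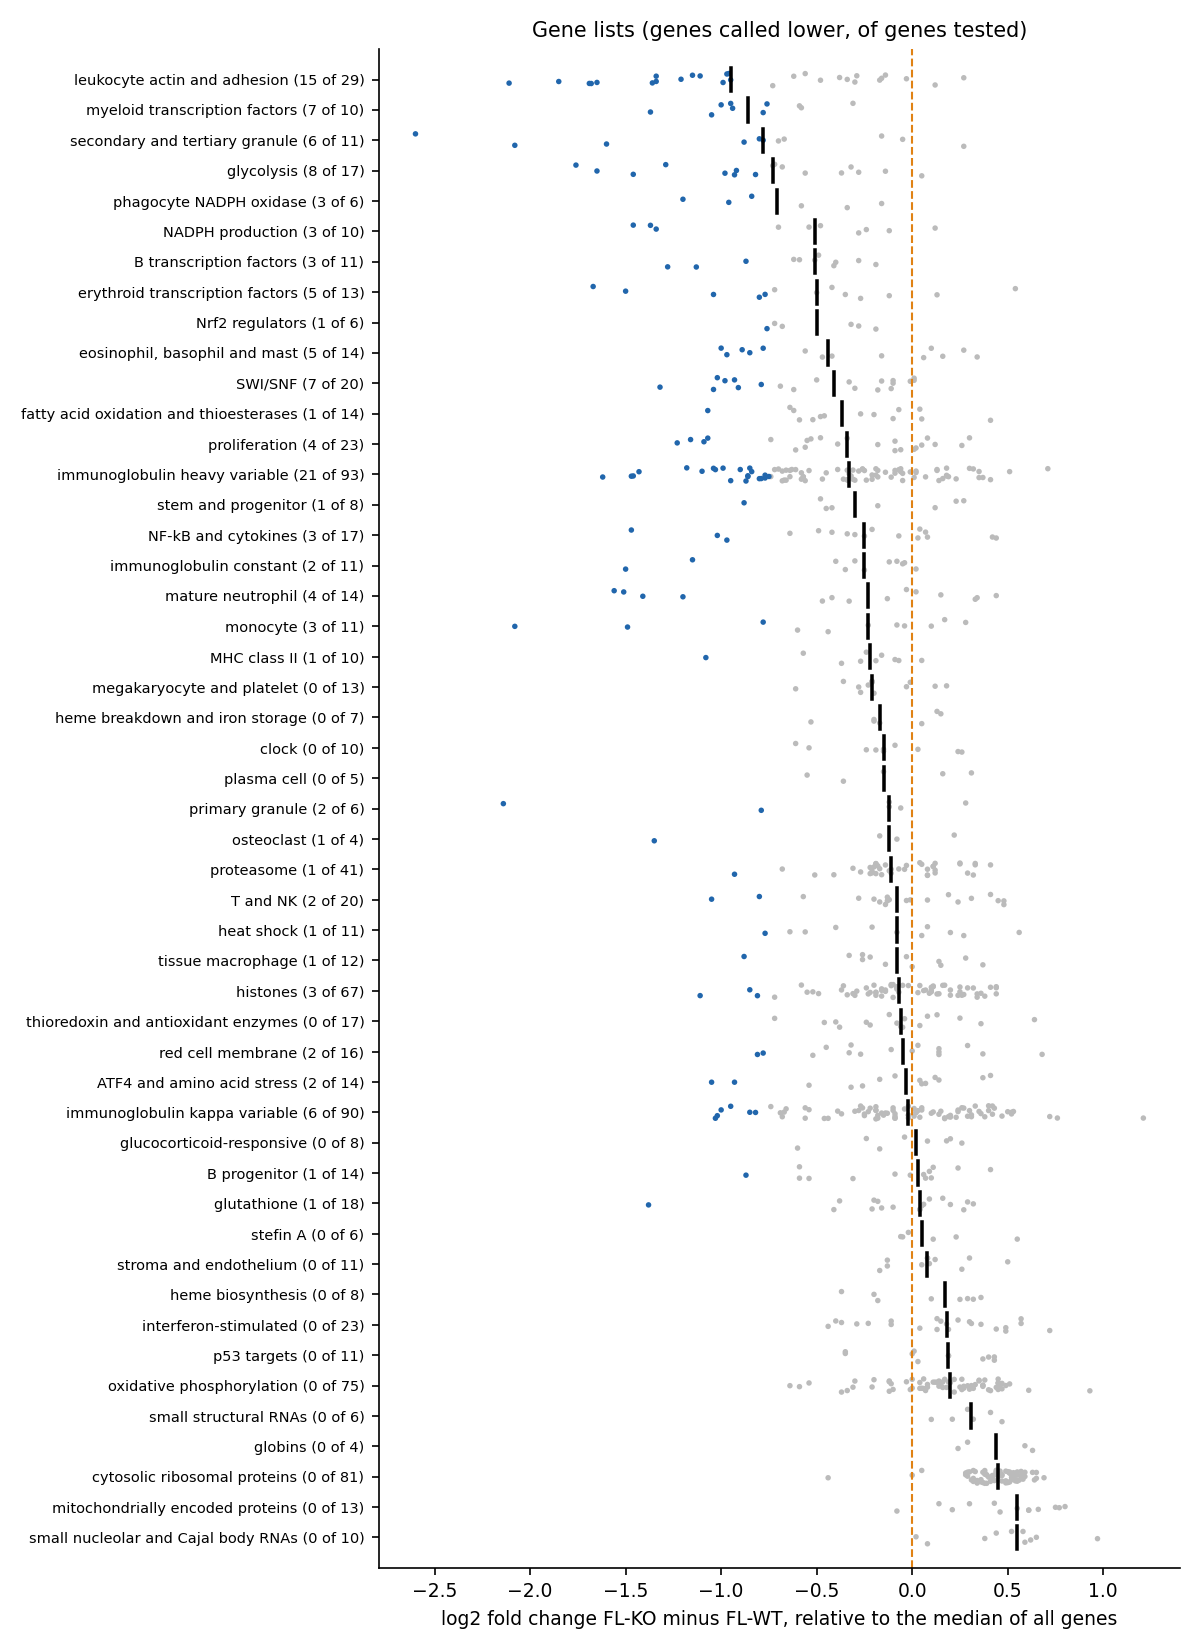
Log2 fold change of FL-KO minus FL-WT relative to the median of all genes (horizontal axis) for each tested member of the 49 gene lists. Blue points passed the thresholds as lower, grey points did not pass, black bars are list medians, and the dashed line is the median of all genes. The medians run from 0.95 below it (leukocyte actin and adhesion) to 0.55 above it (mitochondrially encoded proteins, and small nucleolar and Cajal body RNAs).

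Of 13 erythroid transcription factors, 5 were downregulated (median 0.50 below the median shift): Klf13, Zfpm1, which encodes the GATA1 partner FOG1, Zbtb7a, Foxo3 and Klf1. Zfpm1 was at 9.58, 15.0 and 25.5 TPM in FL-WT and 3.15, 3.66 and 5.88 TPM in FL-KO mice. Gata1 itself was at medians of 12.3 and 5.95 TPM (-0.75) and Tal1 at 16.2 and 10.3 TPM (-0.37). Of 8 heme biosynthesis enzymes 0 passed in limma and 3 were lower at an unadjusted p under 0.05, and Alas2, which starts heme synthesis in erythroid cells, was at 406, 543 and 729 TPM in FL-WT and 446, 573 and 745 TPM in FL-KO mice. The 4 adult globins did not pass either (1 higher at an unadjusted p under 0.05), with a list median 0.44 above the median shift, which was 0.05 below it with quantile normalization. Hbb-bs was at 50200 to 77000 TPM in FL-WT and 59700 to 87500 TPM in FL-KO mice. The share of haemoglobin in TPM was 14.4% to 20.6% and 15.2% to 22.2% (p = 0.19, exact permutation test), and without the 5 small RNAs in the total it was 28.5% to 35.7% in FL-WT and 35.5% to 43.7% in FL-KO mice (p = 0.00433, exact permutation test, adjusted 0.00866). Of 16 red cell membrane genes, 2 were downregulated (12.5%, against 8.36% of all tested genes). These were Slc4a1, the anion exchanger band 3, and Add1, an adducin, with -1.06 and -1.03. Neither passed without FL-WT mouse 7 or FL-KO mouse 2, and leaving out FL-KO mouse 4 ended the call of Slc4a1 and leaving out FL-WT mouse 8 that of Add1.

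In the B lineage, a minority of each list passed. Of 11 B cell transcription factors, Tcf3, Spib and Pou2af1 were downregulated (median 0.51 below the median shift). Tcf3, which encodes E2A, was at 9.54, 12.5 and 24.5 TPM in FL-WT and 3.66, 4.16 and 5.97 TPM in FL-KO mice. Pax5 and Ebf1 were at -0.54 and -0.45. Of 14 precursor genes 1 was downregulated (7.14%, against 8.36% of all tested genes). This was Cd79a, a chain of the B cell receptor (from a median of 43.4 to 20.9 TPM), and its partner Cd79b was at 47.6 and 43.0 TPM (-0.15). Of 11 immunoglobulin constant genes, Ighm fell from a median of 257 to 95.0 TPM and Igha from 14.8 to 4.25 TPM. Of 93 heavy chain variable segments 21 were downregulated (22.6%), and of 90 kappa segments 6 (6.67%), against 8.36% of all tested genes. Their list medians were 0.33 and 0.02 below the median shift. All FL-KO mice were below all FL-WT mice for 8 heavy chain and 2 kappa segments, and for 20.6% of all tested genes. These segments share sequence with each other, so reads could be split between them. Single mice stood apart in them: Ighv1-53 was at 58.3 TPM in FL-WT mouse 6 and at 2.90 to 16.7 TPM in the other FL-WT mice. Without FL-WT mouse 7, 10 heavy chain segments in place of 21 passed. The immunoglobulin share of TPM was 0.126% to 0.393% in FL-WT and 0.125% to 0.193% in FL-KO mice (p = 0.0238, exact permutation test, adjusted over 8 tests 0.0952). Plasma cell genes did not pass (0 of 5 in limma, 3 lower at an unadjusted p under 0.05), with the J chain (Jchain) at medians of 86.5 and 63.8 TPM.

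Among signalling and chromatin genes, subunits of NF-kB and of the SWI/SNF remodeller were lower. Rela, the p65 subunit of NF-kB, was at 5.50, 8.34 and 15.7 TPM in FL-WT and 1.63, 1.77 and 2.79 TPM in FL-KO mice (log2 fold change -1.73 ± 0.22 SE, adjusted p = 1.85e-06 in limma). Nfkb2 and Nfkb1 also passed, as 3 of 17 genes of NF-kB and cytokines, while the cytokine gene Tnf was at medians of 6.55 and 3.88 TPM (-0.46) and the inhibitor Nfkbia at 29.3 and 23.9 TPM (-0.17). Of 20 SWI/SNF subunits, 7 were downregulated (median 0.41 below the median shift), led by Arid1a, from 5.95, 8.93 and 18.3 TPM in FL-WT to 1.98, 2.30 and 3.51 TPM in FL-KO mice. Smarca4, the BRG1 ATPase, fell from a median of 8.69 to 3.42 TPM. With median-of-ratios scaling 1 of the 7 passed, Arid1a. Of 23 replication and mitosis genes, 4 were downregulated, Plk1, a mitotic kinase, and Mcm5, Mcm3 and Mcm2 of the replicative helicase, while Mki67 was at -0.34. Of 23 interferon-stimulated genes 0 passed in limma, and 7 were lower and 2 higher at an unadjusted p under 0.05. The median of this list was 0.18 above the median shift. With no filter on low values, where the median shift itself is 0, it was 0.07 below. Of 10 MHC class II genes, Cd74, the invariant chain, fell from a median of 254 to 102 TPM.

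Of 81 cytosolic ribosomal protein genes 0 passed in limma, 1 was lower and 24 were higher at an unadjusted p under 0.05, and their median was 0.45 above the median shift. Rps27 was at 1400 to 1730 TPM in FL-WT and 1760 to 2220 TPM in FL-KO mice, without overlap (log2 fold change 0.33 ± 0.09 SE, below the fold change threshold). The share of these genes in a total without the 5 small RNAs was 6.84% to 7.81% in FL-WT and at least 8.20% in every FL-KO mouse, with a median of 8.93%, (p = 0.00216, exact permutation test, adjusted 0.00648). With them in the total it was 2.96% to 4.57% and 3.68% to 5.06%, which overlap (p = 0.108, exact permutation test). Of the 13 mitochondrially encoded proteins 0 passed in limma, with 1 lower and 2 higher at an unadjusted p under 0.05. The list had a median 0.55 above the median shift on TPM and 0.08 above it with the GC and length trends removed, and the median GC content of these genes was 37.1%. Of 75 nuclear genes of oxidative phosphorylation 0 passed in limma, and 17 were lower and 2 higher at an unadjusted p under 0.05. Their median was 0.20 above the median shift. With no filter on low values, where the median shift itself is 0, their median was 0.05 below. Of 67 histone genes, Hist1h2ak, Hist1h2ao and Hist1h2ap were downregulated (4.48%, against 8.36% of all tested genes). These genes are near-identical copies, so the split of reads between them is uncertain.

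The remaining lists had few members that passed, and their counts stand beside a downregulated share of 8.36% over all tested genes. Per list the downregulated genes were 2 of 20 T and NK cell genes (Il2rb, an interleukin receptor chain, and Cd3e), 2 of 14 genes of ATF4 and amino acid stress (Slc7a5 and Phgdh), 1 of 8 stem and progenitor genes (Gata2), 1 of 4 osteoclast genes (Nfatc1), 1 of 11 heat shock genes (Hsf1) and 1 of 41 proteasome subunits (Psmd3). Lists without a gene that passed in limma were megakaryocyte and platelet (13 genes), stroma and endothelium (11), p53 targets (11), clock (10), small nucleolar and Cajal body RNAs (10), glucocorticoid-responsive (8), stefin A (6 genes) and small structural RNAs (6 entries). At an unadjusted p under 0.05 the lower genes in these lists numbered 6, 2, 3, 8, 0, 3, 0 and 0 in that order, and 3 small nucleolar RNAs were higher. Over all genes 5857 were lower and 236 higher at that level. With median-of-ratios scaling the calls of Lcn2, Cybb, Ncf1, Cx3cr1, Cd5l, Foxo3, Klf1, Zbtb7a, Slc4a1, Add1, Cd79a, Pou2af1, Ighm, Nfkb1, Nfkb2, Mcm2, Mcm3, Mcm5, Cd74, Cpt1a, Slc7a5, Phgdh, Cd3e, Gata2, Hsf1, Psmd3 and the histone genes named above were lost, and 7 heavy chain and 0 kappa segments were lower. Without FL-WT mouse 7 the count fell from 5 to 3 for erythroid transcription factors, from 2 to 1 for T and NK genes and from 1 to 0 for heat shock and B cell precursor genes. Without FL-KO mouse 1 it moved from 6 to 3 for kappa segments and from 3 to 5 for histones. The summed TPM of the stroma and endothelium list overlapped, with 27.5 to 65.4 TPM in FL-WT and 19.0 to 69.7 TPM in FL-KO mice. That of the megakaryocyte and platelet list also overlapped, with 82.1 to 207 TPM in FL-WT and 53.5 to 183 TPM in FL-KO mice.

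The 12 upregulated genes comprised 4 pseudogenes, 2 antisense genes, 2 loci of the annotation class TEC and 4 protein-coding genes, and 4 of them sat together on chromosome 14. Gm3608, a pseudogene on chromosome 1 (105455971 to 105458829), was at 0.600 to 1.38 TPM in FL-WT and 30.4 to 44.5 TPM in FL-KO mice (log2 fold change 4.31 ± 0.12 SE). Gm16867, a predicted protein-coding gene on chromosome 14 (69363504 to 69503362), was listed at 0 in all FL-WT mice and at 16.7 to 22.9 TPM in FL-KO mice. Gm27177, annotated as antisense on chromosome 14 (69582164 to 69683286), was at 0 to 0.0300 TPM in FL-WT and 6.86 to 18.3 TPM in FL-KO mice. All 3 were also upregulated in GC-KO vs. GC-WT mice, with log2 fold changes of 4.40, 5.07 and 4.66. Of the 10 tested genes from Slc25a37 (69241848 to 69285112) to R3hcc1 (69697307 to 69707584) on chromosome 14, 4 were upregulated, and Slc25a37, a mitochondrial iron importer, was at -0.23. The 4 include Gm20236 and Gm37094, which have identical values in every library and were counted as 2 genes. The libraries were made with a directional kit, but whether the counting used strand is not given in the sources used here, so the value of Gm27177 is uncertain where genes lie on the other strand. Away from chromosome 14, Apol11b, an apolipoprotein L gene, was at 12.7, 15.9 and 18.5 TPM in FL-WT and 26.2, 30.8 and 45.4 TPM in FL-KO mice (log2 fold change 1.02 ± 0.23 SE), and Klk1, a kallikrein protease, at 2.01, 2.70 and 4.11 TPM in FL-WT and 5.53, 6.53 and 7.47 TPM in FL-KO mice. These 5 genes reached a mean of 5 TPM in 1 group and did not overlap. The other 5 upregulated genes were Gm10222, AC122306.1, Gm10693, Apol11a and 1500015A07Rik, with log2 fold changes of 1.77 to 1.13. Leaving out 1 library ended the call of Apol11b for 4 of the 12 libraries and that of Klk1 for 6.

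The flight and ground comparisons share no mice, and the genes largely moved together. Of the 1034 genes that fell in FL-KO mice, 342 were also downregulated in GC-KO vs. GC-WT, which is 33.1% of the flight genes and 91.0% of the 376 ground genes (3.04% of the tested genes). On the ground all GC-KO mice were below all GC-WT mice for 9.15% of genes. Of the 1034, 1027 had a log2 fold change below 0 on the ground as well, with a median of -0.92 there against -1.24 in flight. Relative to the median shift of each comparison (-0.25 in flight and -0.22 on the ground), the medians were -0.99 and -0.70. Of the 1034, 1022 lay below the median shift on the ground. Among all tested genes, 86.5% lay on the same side of the median shift in both comparisons. Of the 12 upregulated genes, 4 were upregulated on the ground, where 16 genes were (0.129%). The difference between the comparisons was tested as the interaction of genotype and flight, in which 2 of 12373 genes passed an adjusted p under 0.1 in limma (0.0162%) and 375 and 53 had an unadjusted p under 0.05 below and above 0. Leaving out 1 library gave 0 to 7 genes. The 2 genes were Gm26917, annotated as a long non-coding RNA gene on chromosome 17 (39843013 to 39846341), and the histone gene Hist1h2ap. Their transcript GC content was 70.7% and 64.5%, above the median of 49.9% of all tested genes. What the reads of Gm26917 derive from was not tested. Gm26917 was at 8520, 11400 and 16900 TPM in FL-WT and 2350, 2770 and 4570 TPM in FL-KO mice, and at 7740 to 14300 TPM in GC-WT and 5750 to 9410 TPM in GC-KO mice (interaction -1.46 ± 0.25 SE, adjusted p = 0.0475 in limma). Hist1h2ap was at 2530 to 4010 TPM in FL-WT and 1240 to 1920 TPM in FL-KO mice, and at 2130 to 3850 TPM and 2630 to 3300 TPM in GC-WT and GC-KO mice (interaction -1.08 ± 0.20 SE, adjusted p = 0.0746 in limma). Gm16867, Hist1h2ag and Gm27177 followed with adjusted p of 0.138, 0.138 and 0.188 in limma. The number of genes depended on the scaling, with 36 after median-of-ratios scaling, 25 with the GC and length trends removed, 18 after quantile normalization, 13 with each library centred on its median and 22 with the mouse number as a fixed block, against 0 with a pseudocount of 0.1 or without the small RNAs.

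**Figure D5:**
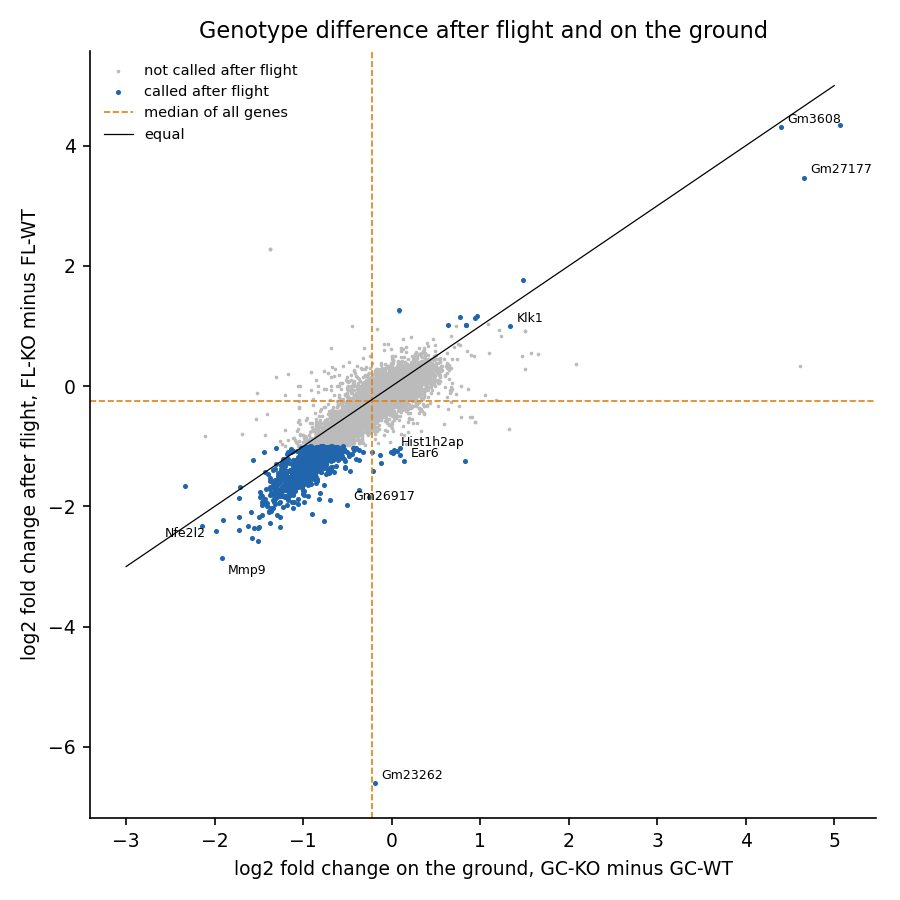
Log2 fold change of FL-KO minus FL-WT (vertical axis) against that of GC-KO minus GC-WT (horizontal axis) for the 12373 tested genes, with the genes called in flight in blue, the median of each comparison as dashed lines and the line of equal change in black. Of the 1034 genes lower in flight, 1027 also lie below 0 on the ground, where the median of all genes is -0.22. Gm26917, Hist1h2ap and Ear6 lie below the line of equal change.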

How the data were processed

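Bone marrow RNA of 24 mice (4 groups of 6) was sequenced, and 1 table with 54752 genes was used. The authors aligned reads with STAR (version 2.6.1) and computed the deposited TPM with RSEM (version 1.3.1); each library sums to about 1000000, so read depth is unknown and no counting interval can be given. The annotation version of the table was not given in the sources used here. Coordinates, biotypes, lengths and GC content came from GENCODE M21 (GRCm38), matched by identifier for 54723 of 54752 genes.

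Genes with TPM above 1 in at least 1 library (12373; 26504 were at 0 throughout) were tested with limma (version 3.58.1, R 4.3.3) on log2(TPM + 1) with 4 group means. A fold change on this scale understates the change of low genes. DEGs differed by a minimum of 2-fold at p below 0.1 after Benjamini-Hochberg adjustment, and the interaction used the adjusted p alone. Shares of TPM were compared with exact two-sided permutation tests (924 splits). On simulated data 98 of 100 genes shifted by 1.5 log2 units and 100 of 100 shifted by 2.5 were recovered, with 1 of 12173 unchanged genes called. The simulation drew independent noise for each gene, shifted only genes with higher means, and held no shift or GC trend common to a library. It therefore cannot show how many calls such trends produce. Nothing in the labels ties the replicates to anything but separate mice.

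Named genes were Nfe2l2, the 10 largest decreases and increases among DEGs whose mean reached 5 TPM in 1 group and whose groups did not overlap, up to 4 DEGs per list (otherwise the 2 most abundant members) and the 5 genes with the smallest interaction p. Other genes are named as list members. Some genes that met these rules are not reported here. The members and the 49 lists were chosen with earlier results of these data known. Alternatives were the pseudocount, filter, scaling, GC and length trends, small RNAs, limma trend, flight libraries alone, replicate block and each library left out. Mice of FL-KO and FL-WT share no number, and same-numbered flight and ground mice deviated with correlations of -0.0265 to 0.273 (consensus 0.303), not all over 0.1, so the numbers were not taken to pair mice.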

Additional observations from a re-analysis of the deposited data

Results flagged for a closer look

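In 28 of 270 groups of 6 mice examined, over 128 named genes and the shares of TPM, 1 mouse stood far from the other 5. Chance flags about 1 in 20 groups. Among the FL-KO mice, mouse 11 was the highest for 11 genes, with 2.45 TPM of Arid1b, 1.41 of Bhlhe40, 8.61 of Fmnl1, 10.7 of Foxo3, 4570 of Gm26917, 10.4 of Hk3, 8.15 of Klf13, 3.71 of Nfatc1, 6.47 of Nfkb1, 2.79 of Rela and 5.88 of Zfpm1. These genes share 1 library, so they are not independent. FL-KO mouse 9 was the lowest for the eosinophil ribonuclease genes Ear1 (38.6 TPM, others 133 to 177) and Ear6 (24 TPM) and the highest for the chemokine gene Cxcl12 (44.7 TPM). FL-KO mouse 2 was the lowest for the serine synthesis gene Phgdh (4.21 TPM) and the peroxiredoxin gene Prdx5 (133 TPM), and FL-KO mouse 1 the highest for the phosphatase gene Dusp1 (39.7 TPM).

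Immunoglobulin segments stood apart in single mice of both genotypes. In FL-KO these were Ighv1-12 (4.37 TPM), Ighv8-8 (18.6 TPM) and Igkv6-17 (15.1 TPM) in mouse 4 and Igkv4-72 (11.5 TPM) in mouse 12. In FL-WT they were Igha (35.0 TPM) in mouse 8, Ighv1-53 (58.3 TPM) in mouse 6 and Igkv6-17 (55.6 TPM) in mouse 5. The other FL-WT values were 258 TPM of Ear6 in mouse 10, 54.9 TPM of the glucocorticoid-induced gene Tsc22d3 in mouse 3, 0.03 TPM of Gm27177 in mouse 7 and a share of mitochondrially encoded genes of 1.83% in mouse 10.

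The genotype difference differed between flight and ground for 2 genes by the interaction in limma. The interaction was -1.46 for Gm26917, annotated as a long non-coding RNA gene, and -1.08 for the histone gene Hist1h2ap. Gm26917 had the larger decrease after flight (log2 fold change -1.97, against -0.51 on the ground). Hist1h2ap was lower after flight (-1.06) and not on the ground (0.03).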

How the results depend on the processing

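TPM hold no depth, so low genes cannot be weighed by their reads. No named gene that passed the thresholds changed sign under an alternative. Of the other results, 21 of 128 named genes and 23 of 49 list medians relative to all genes changed sign under at least 1, among them globins (0.44 to -0.05 with quantile normalization), heme biosynthesis (0.17 to -0.08 with no filter), heme breakdown (-0.17 to 0.04) and red cell membrane (-0.05 to 0.13) with the trends removed. With no filter the median of all genes is 0, so a list median between -0.25 and 0 changes sign by construction. The list of small structural RNAs has no value once these are left out. The 1034 lower genes became 1984 with a pseudocount of 0.1, 283 with each library centred on its median, 381 with median-of-ratios scaling, 309 with quantile normalization, 188 with the GC and length trends removed and 5844 with no minimum fold change. The 12 higher genes became 45, 42, 27, 28, 23 and 236 under the same alternatives, and 23 without the 5 small structural RNAs. In GC-KO vs. GC-WT, the 376 lower genes became 946, 55, 62 and 86 and the 16 higher genes 37, 47, 35 and 33 under the first 4. The interaction gave 0, 13, 36 and 18 genes in place of 2 under those 4, 25 with the trends removed and 0 without the small RNAs. The median shift of -0.25 changed sign or vanished and became 0.172 with centring, 0.044 with median-of-ratios scaling, 0.066 with quantile normalization, 0.047 with the trends removed and 0 with no filter on low values. Beyond the scalings' own construction, the cause was not tested.

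Without the small RNAs in the total, the differences in share passed the threshold of 0.05 for haemoglobin (6.14 points in place of 2.0), ribosomal proteins (1.63 in place of 0.539), immunoglobulins (-0.164 in place of -0.0993), histones (-1.6 in place of -1.17) and the 100 most abundant genes (4.29 in place of 3.18).

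Leaving out 1 library gave 729 (FL-WT mouse 7) to 1251 (FL-WT mouse 5) lower genes, 7 (FL-KO mouse 11) to 14 higher genes and 0 to 7 genes in the interaction. Of 128 named genes, 39 lost their call with median-of-ratios scaling, 41 with centring, 38 with quantile normalization and 42 with the trends removed. No named gene changed with the stricter filter, the limma trend, the flight libraries alone or the random block.

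No paired analysis was possible because FL-KO and FL-WT mice share no mouse number. A random replicate block over flight and ground gave 1033 lower and 12 higher genes, and a fixed replicate block gave 22 genes in the interaction in place of 2. Same-numbered mice correlated at r = -0.0265 to 0.273, over 0.1 in 7 of 12 pairs, with a consensus correlation of 0.303. Not every pair was over 0.1, so the numbers were not taken to pair mice, and pairing remains a possibility the labels do not settle.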
